A study of Mus musculus with 33 samples.

Results

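The metallothionein family was followed through the mouse hair cycle by the transcript levels of its 4 members measured on the array, Mt1, Mt2, Mt3 and Mt4, out of 18193 genes with a probe set that names only that gene. The members were found by gene symbol in the annotation of the array, and where a gene had several probe sets, the one with the highest mean log2 signal over all 33 arrays represents it, so the probe sets were chosen by their own signal, and the family was chosen with its levels on these arrays known; the levels are given as a description. RNA came from whole upper-mid dorsal skin of wild-type (WT) C57BL/6 mice, 1 mouse for each array. In the depilation-induced cycle, 10 females had their hair shafts pulled with a wax/rosin mixture at an age of 7 weeks, when all follicles rested. There were 2 mice for each day after depilation, with D3 taken as early anagen, D5 as mid anagen, both D8 and D12 as late anagen, and D17 as early catagen. In the natural second cycle, 10 females and 13 males were sampled at postnatal days P23 and P25 (early anagen, 4 arrays), P27 (mid anagen, 3), P29 (late anagen, 3), P34 (late anagen, a single array left out of the comparisons reported), P37 and P39 (early catagen, 6), P41 (mid catagen, 3) and P44 (telogen, 3). Anagen is the growth phase of the follicle, catagen its regression and telogen its rest. Because the depilated mice were older than the natural group and all female, cycle, age and sex cannot be told apart in a comparison between cycles, although a fit with sex as a covariate was possible. Within the natural cycle each phase was also a different age, so phase and age cannot be told apart there. The telogen mice (P44) were older than those of early anagen (P23 and P25), so early anagen against telogen is not a step forward in time. The sexes were unevenly spread over the days, and all P23 mice were male.

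Metallothioneins are small cysteine-rich proteins that hold zinc and copper and scavenge oxidants. Mt1 and Mt2 are made by most cells and are induced by zinc or cadmium through the metal-sensing transcription factor MTF1, and also by glucocorticoids, oxidative stress and inflammation, which makes them the stress isoforms of the family. Mt4 is the isoform of differentiating stratified squamous epithelium, and Mt3 is best known from the brain. Hair growth draws on zinc and copper, and keratinocytes of the growing hair bulb are among the skin cells known to contain metallothionein.

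The 4 genes are neighbours on mouse chromosome 8 and read in the same direction, in the order Mt4, Mt3, Mt2, Mt1. Promoters are shown for Mt1, Mt2 and Mt4, whose main probe sets lay above the array median on all 33 arrays. The signals of Mt1 and Mt2 ran together over the arrays (r = 0.888) and that of Mt4 took another course. Each line gives the 250 bases before the gene's start in RefSeq annotation of build GRCm38.p6, plus strand, 5′ to 3′, with capitals for metal response element cores (TGCACNC or TGCGCNC on either strand, the letters that MTF1 is known to bind) and for a TATA box (TATAAA). The windows are chr8:94178839-94179088 for Mt1, chr8:94172368-94172617 for Mt2 and chr8:94136954-94137203 for Mt4.
Mt1: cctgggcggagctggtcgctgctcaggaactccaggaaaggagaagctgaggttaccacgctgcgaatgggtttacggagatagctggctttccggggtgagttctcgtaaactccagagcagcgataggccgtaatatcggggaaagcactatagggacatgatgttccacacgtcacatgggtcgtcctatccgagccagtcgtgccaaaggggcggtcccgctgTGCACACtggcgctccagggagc
Mt2: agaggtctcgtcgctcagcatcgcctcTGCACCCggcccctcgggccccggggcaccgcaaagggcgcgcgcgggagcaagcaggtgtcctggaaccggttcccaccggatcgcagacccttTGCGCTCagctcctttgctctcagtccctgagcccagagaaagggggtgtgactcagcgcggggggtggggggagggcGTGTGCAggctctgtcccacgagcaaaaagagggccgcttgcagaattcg
Mt4: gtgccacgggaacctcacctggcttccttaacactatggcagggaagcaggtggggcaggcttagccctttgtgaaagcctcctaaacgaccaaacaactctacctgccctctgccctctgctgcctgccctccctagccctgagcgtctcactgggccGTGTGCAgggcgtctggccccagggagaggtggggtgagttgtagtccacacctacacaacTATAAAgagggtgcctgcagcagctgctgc

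In the full window of 300 bases, which adds the 50 bases after the start, Mt1 held 3 metal response element cores and Mt2 held 4, whereas Mt3 and Mt4 held 1 each. Of 32851 such windows in the mouse annotation, 25.7% held at least 1 core and 1.97% held at least 3. The core of the antioxidant response element (TGACNNNGC, either strand), which is present in 12.4% of windows, was found in the Mt2 window alone of the 4. The TATA box was found in the Mt4 window alone, where it lay 30 to 25 bases before the start, and in 13.6% of all windows. The annotated starts of Mt1 and Mt2 may lie upstream of the TATA box usually given for these genes, so their windows may not hold the whole proximal promoter. The counts are of the windows alone, letters outside them were not searched, and no match here does not mean that Mt1 or Mt2 lacks a TATA box.

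The main probe set of Mt1 had signals between 3118 and 16820.3, that of Mt2 between 4554 and 19559, and that of Mt4 between 2330.2 and 21905. These 3 probe sets lay above the median of the array on all 33 arrays and at or above the 93.2 percentile of an array throughout. The main probe set of Mt1 is of the type that can bind more than 1 similar transcript, and cross-binding between family members was not tested. A second Mt1 probe set was dim, with signals between 17.5 and 246.7, lay under the floor of 34.6 on 4 arrays and passed the test in no comparison. Its log2 signals had Pearson r = 0.42 with the main Mt1 probe set and 0.266 with Mt2 over the 33 arrays. On the 23 natural arrays these values were 0.719 and 0.556. Mt3 was dim as well, with signals between 6.1 and 393, and lay above the array median on only 10 of 33 arrays and under the floor on 3. All 4 main probe sets passed the filter on low signals, as 26988 of 45037 probe sets did. Median signals of the arrays were between 111 and 142.5, arrays of the same time point correlated with r between 0.943 and 0.98. The skin markers Krt5, Krt14, Krt10, Lor, Col1a1 and Col3a1 were at or above the 95 percentile of every array.

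**Figure D1:**
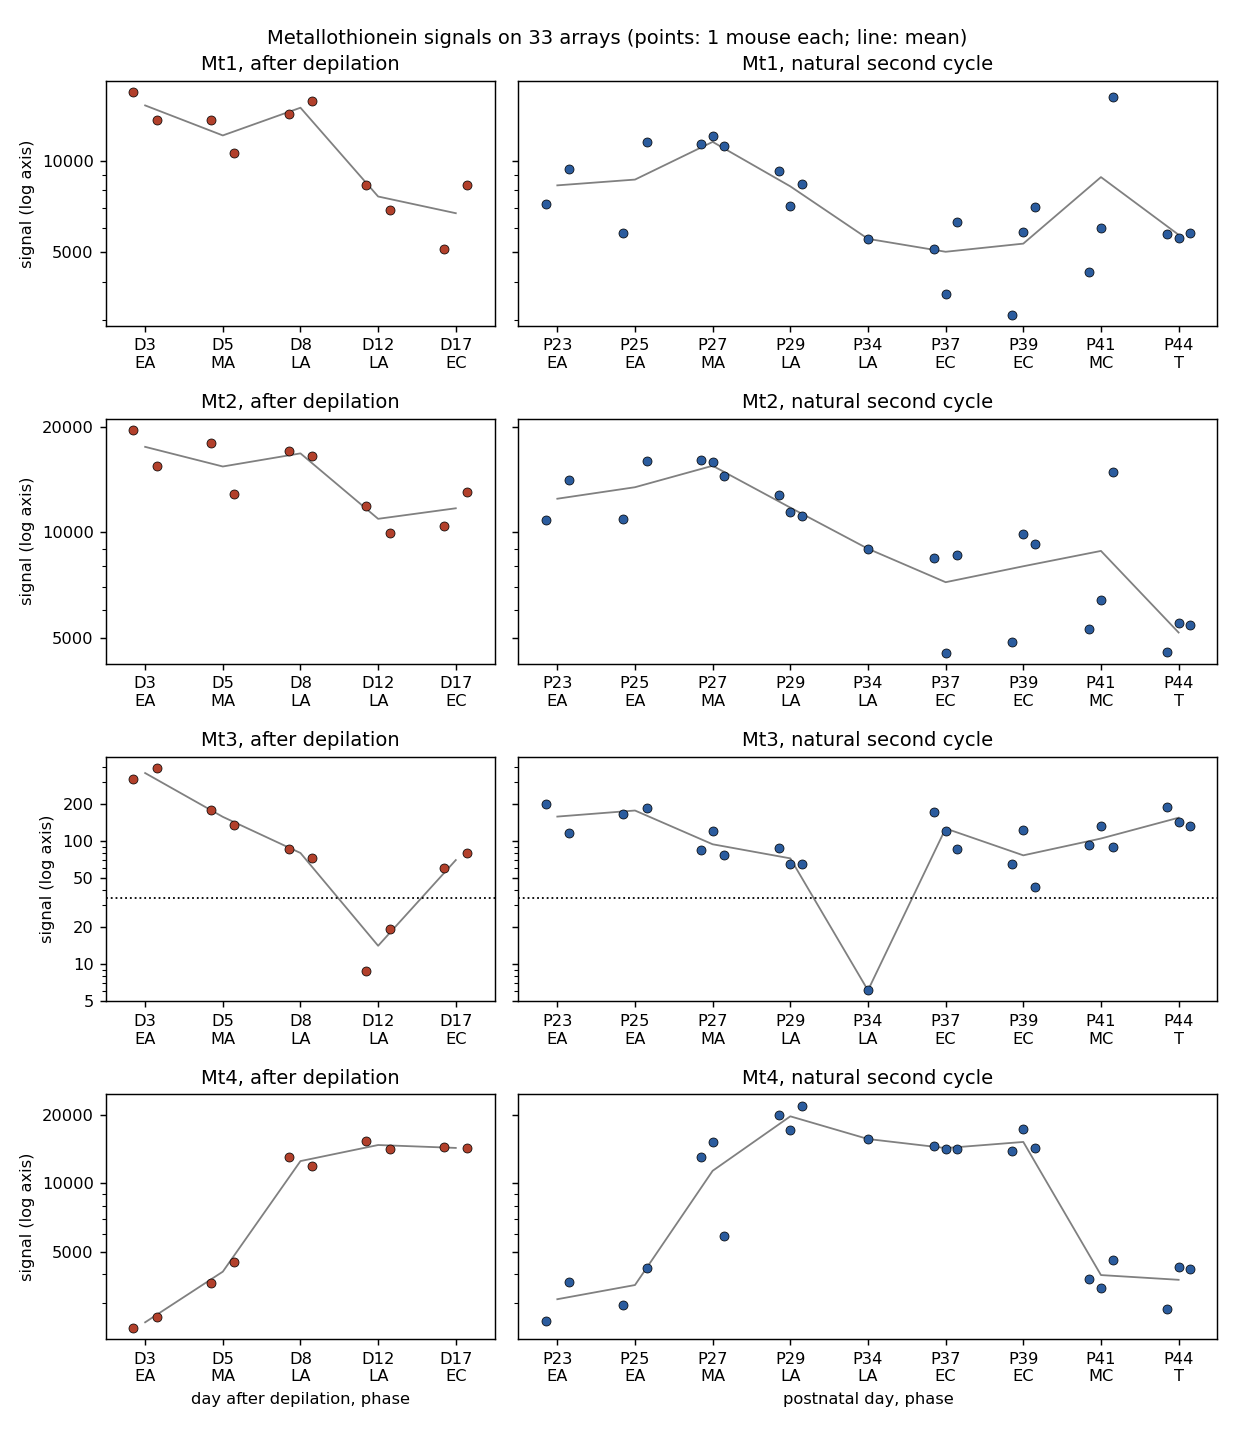
Signals of Mt1, Mt2, Mt3 and Mt4 (log axis) at each day after depilation (left) and each postnatal day of the natural cycle (right), with 1 point for each mouse and a line through the means. EA, MA and LA stand for early, mid and late anagen, EC and MC for early and mid catagen, T for telogen, and the dotted line marks the floor of 34.6. Mt4 climbs between early and late anagen in both cycles and drops at P41 in the natural one, whereas Mt1 and Mt2 have their highest means at D3 and D8 and are low at P44.

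Mt4, the epithelial isoform, had the strongest hair cycle pattern of the family, and its natural course was low in early anagen, high from mid anagen to early catagen and low again from mid catagen on. Its signals at early anagen were 2514 and 3724 at P23 and 2939.6 and 4255 at P25. At mid anagen they were 13085, 15144 and 5865, and at late anagen 19977, 17117 and 21905, with 15651 on the P34 array. The mid anagen arrays were all above those of early anagen, and the third of them stood well below the other two. Through early catagen Mt4 ran from 13933 to 17302 with a median of 14229.8 over 6 arrays. At mid catagen it was 3812, 3477 and 4641, and at telogen 2835, 4299 and 4241. Mid catagen and telogen overlapped, and neither reached the signals of early catagen.

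All 4 members passed the F test of limma across the 6 natural phases, as 72.6% of all probe sets did, so the passing itself does not set the family apart. The adjusted p was 5.78e-08 for Mt4, 0.0012 for Mt2, 0.0267 for Mt3 and 0.0281 for Mt1. The Mt4 and Mt2 calls held whichever of the 22 arrays was left out, and the Mt1 and Mt3 calls were lost with no filter on low signals (adjusted p = 0.0601 and 0.0575). The Mt1 call was lost without any 1 of the P27 arrays, without P37 replicate 2 or without P39 replicate 1, and the Mt3 call without any 1 of 5 other arrays (P23 replicate 1, P25 replicate 2, P29 replicates 2 and 3, P44 replicate 1), with adjusted p up to 0.0652 for Mt1 and 0.0627 for Mt3.

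The step into mid anagen raised Mt4 by 1.68 ± 0.35 on the log2 scale over early anagen (± is the standard error of a log2 difference throughout), a 3.20-fold rise with an adjusted p of 0.0179 in limma, where 19.7% of probe sets passed, 10.4% higher and 9.27% lower. Without P27 replicate 1 or without replicate 2 the call was lost, with adjusted p up to 0.0744. It held in 8 of 12 other settings and was lost with no filter on low signals, with P23 alone or P25 alone as early anagen, and under the analysis of variance of the study's methods after Benjamini-Hochberg adjustment (adjusted p up to 0.103). The third P27 array, the low one, also had a summed signal of 14 hair shaft markers of only 35081, against 156213 and 167115 on the other P27 arrays. That array was thus behind in both readouts, and whether its follicles were less advanced was not tested. It came from the only female of that day, the other P27 mice being male. In whole skin, fewer cells of a type and less RNA in each cell cannot be told apart.

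The steps from mid to late anagen and from late anagen to early catagen did not pass for any member. Mt4 was 0.90 ± 0.36 higher in late than in mid anagen (adjusted p = 0.24, limma) and 0.41 ± 0.11 lower in early catagen than in late anagen (adjusted p = 0.222, limma). No probe set on the array passed limma in either step, with percent called 0 in both. At an unadjusted p under 0.05 there were 5323 and 3596 probe sets, and the analysis of variance named in the study's methods also gave 0 after Benjamini-Hochberg adjustment.

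Mid catagen brought a fall of Mt4, with signals of 3812, 3477 and 4641 in mid catagen and at least 13933 in early catagen. The difference was -1.90 ± 0.12 on the log2 scale, or 3.72-fold lower, with an adjusted p of 6.55e-05 in limma, where 35.3% of probe sets passed, 17.4% higher and 17.9% lower. The call held in each of 9 omissions of an array and in all 10 other settings. From mid catagen to telogen, where 5.88% of probe sets passed (3.88% lower), Mt4 differed by -0.08 ± 0.21 (adjusted p = 0.844, limma), and no other member passed.

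Mt4 and the hair shaft markers parted at mid catagen. Hair shaft keratins and their regulators summed to 96339, 71328 and 102648 at P41, against 203391 to 234228 in early catagen, and to 5969, 4191 and 3127 at P44. For Mt4, 2 of the P41 arrays were within the range of telogen (2835 to 4299) and the third was above it at 4641, while the summed hair shaft signal was still at least 71328 on all 3. Of the 14 hair shaft genes 12 fell between early and mid catagen, with a median log2 difference of -1.18, and 13 fell between mid catagen and telogen, with a median of -4.90. The medians over all probe sets were -0.01 and 0.06.

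**Figure D2:**
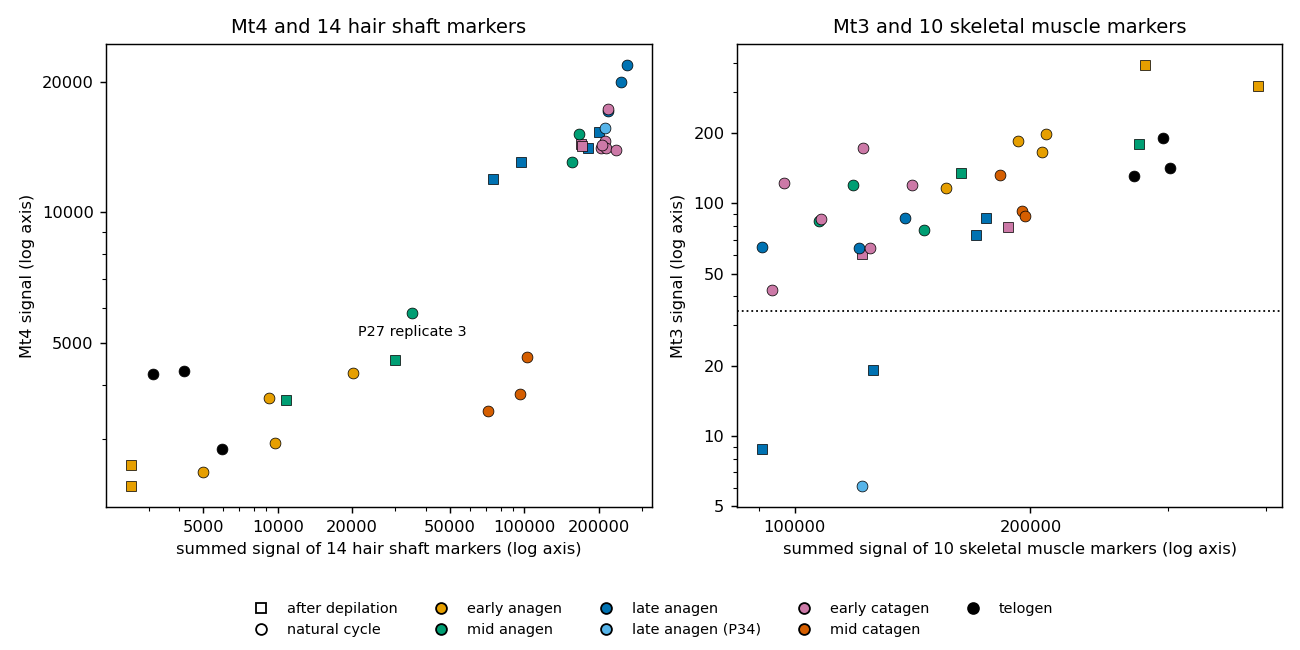
Left, Mt4 signal against the summed signal of 14 hair shaft markers; right, Mt3 signal against the summed signal of 10 skeletal muscle markers, both on log axes, with 1 point for each of 33 mice (squares after depilation, circles natural, colours by phase, dotted line at the floor of 34.6). The 3 mid catagen arrays lie below the course of the other arrays on the left, and on the right the Mt3 signals are highest in the D3 pair, whose muscle sums were 390164 and 280150.

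After depilation Mt4 took the same direction. Its signals were 2330.2 and 2613 at D3, 3679 and 4552 at D5, and 13106.5 and 11957 at D8. They were 15377 and 14087.5 at D12 and 14387 and 14227 at D17. Each of the first 3 days stood above the day before without overlap, and the last 3 days spanned 11957 to 15377. Across the 5 days Mt4 passed the F test (adjusted p = 0.000597, limma), as did 10.2% of probe sets, and the call held in all 10 omissions. The step of D8 and D12 over D5 was 1.73 ± 0.14, or 3.32-fold, with an adjusted p of 0.0033 in limma, where 0.545% of probe sets passed and 0.43% were higher. From D3 to D5, where 2.66% of probe sets passed (1.95% higher, 0.715% lower), Mt4 was 0.73 ± 0.16 higher at D5 with an adjusted p of 0.063. From late anagen to D17 it differed by 0.08 ± 0.14, in a comparison where no probe set passed limma (percent called 0, with 948 at an unadjusted p under 0.05).

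Set against the natural cycle, Mt4 passed the test as lower after depilation at 1 of the 4 phases compared. At D5 the signals were 3679 and 4552, against 13085, 15144 and 5865 in natural mid anagen, and the groups did not overlap. Both D5 mice were female, and of the natural mid anagen mice the female had 5865 and the males 13085 and 15144. The difference was -1.36 ± 0.28, or 2.57-fold lower at D5, with an adjusted p of 0.00156 in limma, where 23.6% of probe sets passed, 9.18% higher and 14.5% lower. The call held in all 29 omissions and in all 8 other settings. Of the 14 hair shaft markers 13 were lower at D5 as well, with a median log2 difference of -2.88. At D3 against natural early anagen Mt4 differed by -0.41 ± 0.27, at D8 and D12 against natural late anagen by -0.53 ± 0.23 and at D17 against natural early catagen by -0.04 ± 0.25, none of them past the test (adjusted p between 0.101 and 0.94, limma). The D8 and D12 difference passed once, without P27 replicate 3 (adjusted p = 0.023). All D8 and D12 arrays (11957 to 15377) nevertheless lay below all natural late anagen arrays (17117 to 21905). In that comparison 26.5% of all probe sets passed, 15.9% of them lower, so the missed threshold does not show equal levels.

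The genes whose log2 signals ran closest to Mt4 over the 33 arrays, of 12855 compared, were Bhlha9 (Pearson r = 0.963), Rnf182 (0.955), Gpnmb (0.954), Sp6 (0.952) and Kcnh1 (0.949). Sp6 is a transcription factor of hair and tooth epithelium, Gpnmb a glycoprotein of pigment cells and macrophages, and Kcnh1 a potassium channel. Among the hair shaft markers Krt32, a hair cuticle keratin, had r = 0.942. These arrays share hair cycle phases, so the values describe a common course and carry no p. Sp6 had signals of 867 to 1300.3 at mid catagen and 2711 to 3993 in early catagen. Gpnmb had 616 to 1007 at mid catagen and 4336 to 9719 in early catagen. Because these genes were picked by their correlation with Mt4 on the same arrays, a fall like that of Mt4 was built in. Of all probe sets 17.9% were lower in that step.

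Mt1 and Mt2, the stress isoforms, followed another course. Mt2 had its natural high point at mid anagen and its low point at telogen. Its signals in early anagen were 10828 and 14109.7 at P23 and 10929 and 15959 at P25, followed by 16079, 15839 and 14497 at mid anagen and 12736.5, 11417 and 11138 at late anagen. The P34 array had 8986, and the 6 arrays of early catagen ran from 4554 to 9865.5 with a median of 8549.8. At mid catagen Mt2 was 5322, 6425 and 14829.7, and at telogen 4584, 5541 and 5448. All early and mid anagen arrays were above all telogen arrays, and P41 replicate 3 stood apart from the other mid catagen arrays.

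Early anagen set against telogen gave the one natural step in which Mt2 passed. The difference was 1.30 ± 0.17, or 2.47-fold higher in early anagen, with an adjusted p of 0.00275 in limma, where 26.8% of probe sets passed and 13.5% were higher. The call held in each of the 7 omissions and in all 12 other settings. No other member passed in that step, and Mt1 differed by 0.52 ± 0.23 (adjusted p = 0.134, limma, but 0.0338 without P25 replicate 1). Whether Mt1 and Mt2 differed in their change was not tested.

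Mt1 passed in none of the steps between neighbouring phases. It had 7202 and 9406 at P23, 5807 and 11545 at P25, and 11389, 12090.3 and 11148 at mid anagen. At late anagen it had 9225, 7081 and 8419.6, on the P34 array 5538, and in early catagen 3118 to 7054.5 with a median of 5488 over 6 arrays. At mid catagen it had 4322, 5999.5 and 16197, and at telogen 5751, 5587 and 5794. The telogen arrays were close to each other and inside the range of early catagen, while P25 replicate 2 and P41 replicate 3 were about as high as mid anagen or higher.

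Neither stress isoform passed in a single step between late anagen and telogen. Telogen was also compared with late anagen, a comparison chosen after the values had been seen, where 44.6% of probe sets passed, 23% higher and 21.6% lower. At telogen Mt2 was 4584, 5541 and 5448, against 12736.5, 11417 and 11138 at late anagen, a difference of -1.18 ± 0.14 (2.27-fold lower, adjusted p = 0.000927, limma). Mt1 differed by -0.52 ± 0.14 (1.43-fold lower, adjusted p = 0.0232), a call lost without any 1 of 4 arrays (P29 replicates 1 and 3, P44 replicates 2 and 3) with adjusted p up to 0.0739. The second, dim Mt1 probe set differed in the other direction, by 0.48 ± 0.45 (adjusted p = 0.414, limma). Mt4 was 5.25-fold lower (-2.39 ± 0.20, adjusted p = 0.00034), and Mt3 was 2.13-fold higher at telogen (1.09 ± 0.20, adjusted p = 0.00531). In the arrays of these phases, the groups did not overlap for the main probe set of any of the 4 members. How many of all probe sets were separated in this way was not counted, so this does not set the family apart.

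**Figure D3:**
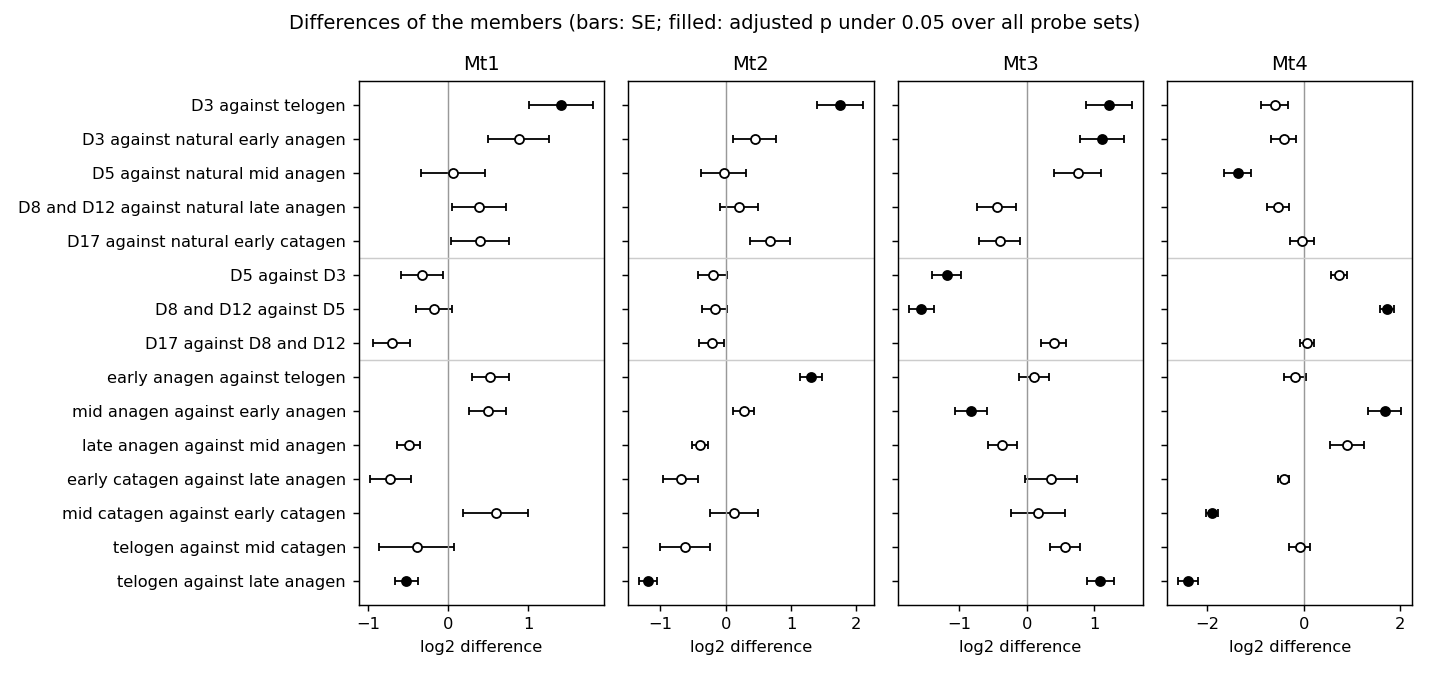
Log2 differences of the 4 members with their standard errors in 15 comparisons, from top to bottom those between depilated and natural skin, those between days after depilation and those between natural phases. Filled points had an adjusted p under 0.05 over 26988 probe sets. Mt1 and Mt2 are positive at D3 against telogen where Mt4 is not, and the steps of Mt4 into mid anagen (1.68) and into mid catagen (-1.90) are filled in Mt4, where those of Mt1 and Mt2 are open.

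After depilation both stress isoforms were high from D3 to D8 and lower at D12. Mt1 had 16820.3 and 13607 at D3, 13611 and 10628 at D5, 14213 and 15688 at D8, 8356 and 6907.5 at D12 and 5123 and 8327 at D17. Mt2 had 19559 and 15467 at D3, 17958 and 12840.4 at D5, 17092 and 16467 at D8, 11868 and 9994 at D12 and 10431 and 12994 at D17. For Mt1 all 6 arrays of D3, D5 and D8 were above all 4 of D12 and D17, whereas for Mt2 the lower D5 array lay within the range of D17. Neither passed the F test over the 5 days (adjusted p = 0.0507 for Mt1 and 0.171 for Mt2, limma). The Mt1 value was close to the threshold and passed under 4 of 8 other settings, with adjusted p between 0.0357 and 0.119, and also without D5 replicate 2 or D17 replicate 2 (0.0473 at the lowest).

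At D3 both were higher than in telogen. Mt1 had 16820.3 and 13607 at D3, against 5751, 5587 and 5794 at telogen, a difference of 1.41 ± 0.40 (2.65-fold, adjusted p = 0.0102, limma). Mt2 had 19559 and 15467 at D3, against 4584, 5541 and 5448 at telogen, a difference of 1.75 ± 0.34 (3.36-fold, adjusted p = 0.000615). In this comparison 33.1% of probe sets passed and 13.4% were higher, and neither gene's groups overlapped. The Mt2 call held in all 29 omissions, and the Mt1 call was lost without D3 replicate 1 (adjusted p = 0.102). The second, dim Mt1 probe set differed by 0.07 ± 0.62 (adjusted p = 0.945, limma). Mt4, at 2330.2 and 2613 at D3 and 2835 to 4299 in telogen, differed by -0.59 ± 0.28 (adjusted p = 0.108), and passed only without P27 replicate 3 or P44 replicate 1 (0.0262 at the lowest).

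Other cell types also moved at D3 against telogen, where 13.4% of all probe sets were higher and 19.7% lower. Of 9 dermal fibroblast markers 8 were lower, with summed signals of 57681 and 73927 at D3 and 150724 to 235328 in telogen. Of 10 leukocyte markers 6 were lower (15643 and 36167 at D3, 56752 to 81676 in telogen), as were 9 of 10 inner root sheath, 4 of 14 hair shaft and 2 of 6 endothelium markers. Of 12 epidermis markers 2 were higher and 1 lower, and 0 of 7 adipocyte markers passed in either direction. In natural early anagen against telogen 7 of 10 leukocyte and 9 of 12 epidermis markers were lower, as were 13.2% of all probe sets. Their part in the Mt1 and Mt2 differences was not tested.

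The comparisons of D3 and of natural early anagen with telogen share the telogen arrays. Set directly against natural early anagen, where 44.6% of probe sets passed (18.5% higher, 26.1% lower), D3 differed in Mt1 by 0.88 ± 0.38 (adjusted p = 0.0646, limma) and in Mt2 by 0.45 ± 0.33 (adjusted p = 0.28). With sex as a covariate or with the replicate number as a block the Mt1 difference passed, with an adjusted p as low as 0.0152 over the 8 settings and as high as 0.178. It also passed without P25 replicate 2 or P39 replicate 1 (0.0271 at the lowest). At D5 against natural mid anagen the differences were 0.06 ± 0.40 for Mt1 and -0.03 ± 0.34 for Mt2. At D8 and D12 against natural late anagen 26.5% of probe sets passed (10.6% higher, 15.9% lower) and no member did, although Mt3 passed with a floor of 16 (adjusted p = 0.0213). That comparison takes the mean of D8 and D12, which were unlike in Mt1 and Mt2. At D8 Mt1 had 14213 and 15688 and Mt2 had 17092 and 16467, all above natural late anagen. Late anagen ran from 7081 to 9225 in Mt1 and from 11138 to 12736.5 in Mt2, and the D12 arrays overlapped it. D8 alone was not tested. At D17 against natural early catagen 15.3% passed (5.5% higher, 9.82% lower) and again no member did. None of 12 limma tests of whether a phase step differed between the cycles passed for the members, the smallest adjusted p being 0.116 for Mt4 from early to mid anagen . At an unadjusted p under 0.05 there were 3, of Mt4 in that step and of Mt3 and Mt4 from mid to late anagen. The share of all probe sets that passed was 11.3% from early to mid anagen (6.2% higher, 5.06% lower), 0.0963% from mid to late anagen and 0% into early catagen.

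Mt1 and Mt2 signals ran together between mice. Over the 33 arrays their log2 signals had a Pearson r of 0.888 and a Spearman rho of 0.933. The deviations from the mean of each time point, over the 32 arrays of time points with replicates, had r = 0.933. Mt2 with Mt4 had r of 9.67e-05 and Mt1 with Mt4 -0.204 over the 33 arrays. The order of the phases was nonetheless not the same for both stress isoforms. Log2 Mt2 minus log2 Mt1 was between 0.47 and 0.91 on the 4 early anagen arrays and between -0.33 and -0.01 on the 3 telogen arrays, without overlap. This within-array difference describes unequal change and was not tested.

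Among 11 conditions (5 days after depilation and 6 natural phases), D3 and D8 were the highest for Mt1, with means of 15213 ± 2272 and 14950.4 ± 1043 (SD, n = 2 each), and telogen and early catagen the lowest, with 5710.5 ± 109 (n = 3) and 5181 ± 1535 (n = 6). For Mt2 the same pair of days led, and telogen was lowest with 5191 ± 528 (n = 3). For Mt4 late anagen led with 19667 ± 2409 (n = 3) and D3 was last with 2472 ± 200.2 (n = 2). Of the 10 neighbours in each order, the ranges overlapped in 9 for Mt1, in 9 for Mt2, in 8 for Mt4 and in 8 for Mt3. The neighbours without overlap were D8 and D5 in Mt1 and D8 and natural mid anagen in Mt2. In Mt4 they were D17 and D8, and natural mid anagen and D5. Conditions further apart in an order can still overlap, as D8 and D5 did in Mt2.

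The genes closest to Mt2 over the 33 arrays were Polr1c (r = 0.862), Cdkn2aipnl (0.847), Smarcd2 (0.834), Cenpw (0.832) and Cdc123 (0.827). Those closest to Mt1 were Polr1c (0.794), Mrps9 (0.776), Pkp4 (0.765), Smarcd2 (0.763) and Eif2a (0.729). Polr1c is a subunit of RNA polymerases I and III, Mrps9 a protein of the mitochondrial ribosome, Cenpw a centromere protein and Smarcd2 a chromatin remodelling subunit. Of the mitosis markers Cdca8, a chromosomal passenger protein, had r = 0.821 with Mt2 and 0.587 with Mt1, and Plk1, a mitotic kinase, 0.778 and 0.482. All 10 mitosis genes rose in early anagen against telogen (median log2 difference 3.19) and all 10 in D3 against telogen (2.51). Of all probe sets 13.5% and 13.4% were higher in these comparisons. The part of the mitosis genes in the Mt2 differences was not tested.

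Glucocorticoid-induced and inflammation genes were followed in the same comparisons, and their part in the Mt1 and Mt2 differences was not tested. In early anagen against telogen 11 of 14 glucocorticoid-induced genes fell and 0 rose, where 13.2% of all probe sets fell and 13.5% rose. Their median was -1.25, against -0.05 for all probe sets. Those that fell included Dusp1 (-1.28 ± 0.10), a phosphatase of stress kinases, Cebpd (-1.44 ± 0.12), Tsc22d3 (-1.76 ± 0.16), the glucocorticoid-induced leucine zipper, and Errfi1 (-1.23 ± 0.14). Of 15 genes of acute inflammation 6 fell and 0 rose. At D3 against telogen 3 glucocorticoid-induced genes were higher and 1 lower, where 13.4% of all probe sets were higher and 19.7% lower. Of 15 inflammation genes 5 were higher, among them Socs3 (1.30 ± 0.24), a feedback inhibitor of cytokine signalling, and the chemokine Cxcl2 (1.79 ± 0.43). At D3 against natural early anagen, where Mt1 and Mt2 missed the threshold, 11 of 14 glucocorticoid-induced and 7 of 15 inflammation genes were higher, as were 18.5% of all probe sets. Lcn2, a secreted iron-carrier binding protein, stands in both lists and was 3.03 ± 0.64 higher at D3 than in telogen.

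The summed signal of the 14 glucocorticoid-induced genes was highest on P41 replicate 3, at 80848, followed by the D3 pair with 65132 and 66715, against 45995 to 58376 in telogen. These 3 arrays also had high Mt1 and Mt2, those of the D3 pair being given above. The D8 pair was high in Mt1 and Mt2 as well, although the sums on the 4 late anagen arrays after depilation were only 27685 to 35640. Telogen, with larger sums than these, was low in both genes. P41 replicate 3 had 16197 in Mt1 and 14829.7 in Mt2, against 4322 and 5999.5 in Mt1 and 5322 and 6425 in Mt2 on the other P41 arrays. Tsc22d3 was 12999.5 there, against 5731 and 5958, and Fkbp5, a chaperone of steroid receptors and a sensitive glucocorticoid target, was 5611, against 1252 and 2085. Tsc22d3, Fkbp5, Per1, Zbtb16 and Sgk1 each had their highest signal of all 33 arrays on P41 replicate 3, while Mt1 ranked 2 and Mt2 ranked 9. These genes are only part of the list of 14, and Per1, Zbtb16 and Sgk1 were picked after their values were seen. Ranks of the other genes of the list are not given. On P27 replicate 3, where Tsc22d3 and Fkbp5 ranked 3, Mt1 and Mt2 both ranked 10. Without P41 replicate 3, Mt1 and Mt2 differed by 0.03 and -0.32 between mid and early catagen in place of 0.59 ± 0.41 and 0.13 ± 0.37, none of them past the test (adjusted p = 0.282 for Mt1 and 0.803 for Mt2 with all arrays, limma). Over the 33 arrays Mt1 had r = 0.117 with Tsc22d3 and 0.296 with Fkbp5.

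**Figure D4:**
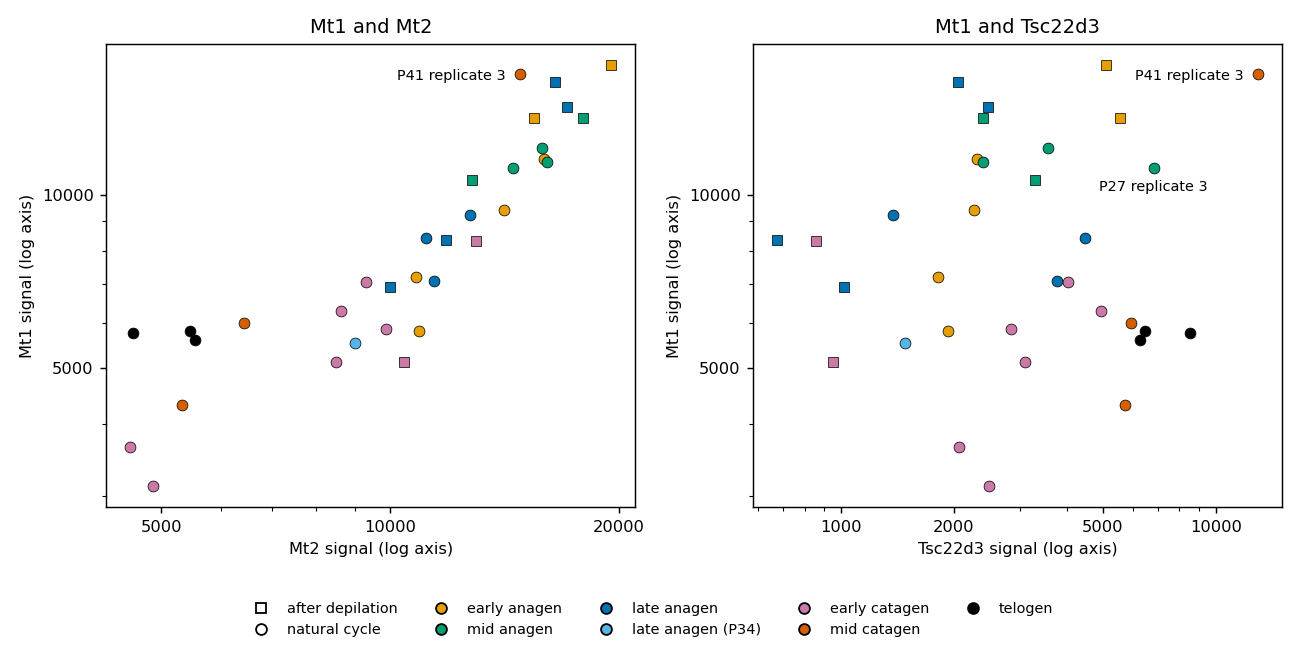
Mt1 signal against Mt2 signal (left) and against Tsc22d3 signal (right) on 33 arrays, all axes log, with squares after depilation, circles natural and colours by phase. Mt1 and Mt2 lie along a single band (r = 0.888), while Mt1 and Tsc22d3 do not (r = 0.117), and P41 replicate 3 is at 16197 in Mt1 and 12999.5 in Tsc22d3.

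At D3 zinc transporters moved in both directions, and the exporter Slc30a1 was lower. Slc30a1 exports zinc from the cell and is, like Mt1, a known target of MTF1. It had 685 and 1140.4 at D3, against 1839.6, 1207 and 1654 at telogen, and was lower at D3 by 0.80 on the log2 scale (-0.80 ± 0.28, adjusted p = 0.0285, limma) where Mt1 and Mt2 were higher. In natural early anagen it was higher than in telogen (1.11 ± 0.28, adjusted p = 0.0264), with signals of 2254 to 4797 in early anagen. It rose again into mid anagen (1.07 ± 0.27) and fell into mid catagen (-1.80 ± 0.14), as Mt4 did. Over the 33 arrays Slc30a1 had r = 0.884 with Mt4, -0.131 with Mt1 and 0.141 with Mt2. Mtf1 itself had signals of 241 to 643, above the highest array median of 142.5, and passed in neither comparison with telogen (-0.23 ± 0.22 at D3 and -0.31 ± 0.16 in early anagen). Of 8 genes for MTF1 and other MTF1 targets, 2 were lower and 0 higher at D3 against telogen, where 19.7% of all probe sets were lower and 13.4% higher. In natural early anagen against telogen 3 were higher and 2 lower, where 13.5% of all were higher and 13.2% lower. The 8 genes include Mtf1 itself and Slc39a10, a gene that MTF1 is known to repress, so these counts do not measure MTF1 activity. Slc30a1 and Slc39a10 are also counted among the zinc transporters below.

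Of 7 kept zinc exporters 2 rose in early anagen against telogen and 2 fell at D3 against telogen. Of all probe sets 13.5% rose and 13.2% fell in the first comparison, and 13.4% were higher and 19.7% lower in the second. Of 11 kept zinc importers 4 rose and 0 fell in early anagen against telogen. These were Slc39a10 (2.63 ± 0.33), which MTF1 is known to repress, Slc39a6 (1.10 ± 0.18), Slc39a14 (0.83 ± 0.17) and Slc39a8 (1.86 ± 0.32). At D3 against telogen Slc39a8 was higher (0.88 ± 0.31), Slc39a11, Slc39a13 and Slc39a14 were lower, and Slc39a10 differed by -0.50 ± 0.29 (adjusted p = 0.198). At mid catagen against early catagen 4 importers fell, led by Slc39a6 (-1.30 ± 0.09) and Slc39a10 (-2.32 ± 0.19), and 1 rose. Of all probe sets 17.9% fell and 17.4% rose there. At D5 against natural mid anagen, where Mt4 was lower, 1 of 7 exporters and 4 of 11 importers were lower and 2 importers higher. Of all probe sets 14.5% were lower and 9.18% higher in that comparison.

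**Figure D5:**
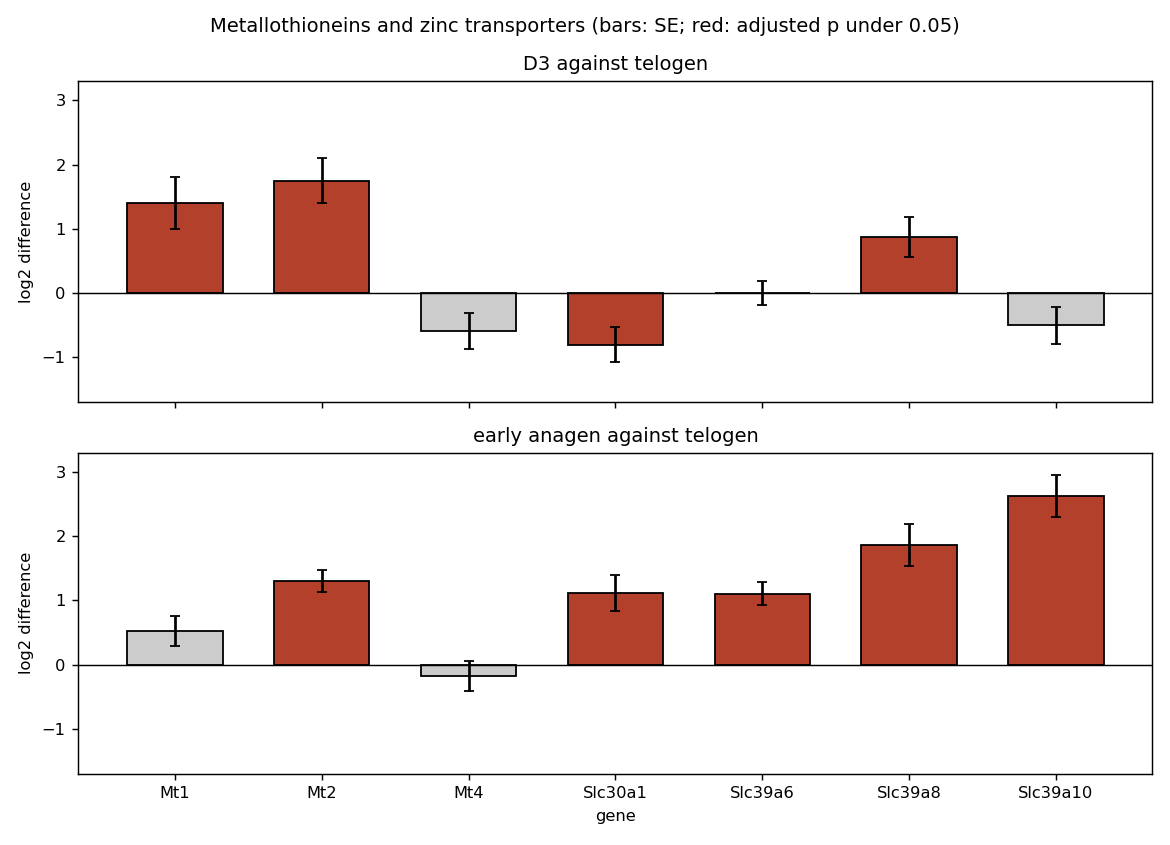
Log2 differences with standard errors of 3 metallothioneins and 4 zinc transporters at D3 against telogen (top, fit of 33 arrays) and in natural early anagen against telogen (bottom, fit of 7 arrays). Red bars had an adjusted p under 0.05 over all probe sets. Mt1 and Mt2 are up by 1.41 and 1.75 at D3 where Slc30a1 is down by 0.80, whereas Mt2 and all 4 transporters are up in natural early anagen.

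Some copper and redox genes fell at mid catagen, as Mt4 did, and others rose. At mid catagen 17.9% of all probe sets fell and 17.4% rose. Of 14 copper-handling genes 4 fell and 1 rose, those that fell including the copper pump Atp7a (-0.53 ± 0.10), the importer Slc31a1 (-0.86 ± 0.11) and the metalloreductase Steap2. Atp7a and Steap2 had r = 0.896 and 0.919 with Mt4 over the 33 arrays. Of 18 genes of the oxidative stress response 7 fell and 8 rose at mid catagen. Those that fell included Txnrd1, a thioredoxin reductase (-1.06 ± 0.08), and Slc7a11, the cystine importer (-2.02 ± 0.23), whereas Sod1 (0.92 ± 0.11) and Gpx1 (0.57 ± 0.11), a superoxide dismutase and a glutathione peroxidase, rose. At D3 against telogen, where Mt1 and Mt2 were higher, 5 of 18 were higher and 0 lower, against 13.4% and 19.7% of all probe sets. Gsta4 (1.75 ± 0.26), a glutathione transferase, and Gclm (1.05 ± 0.18), of glutathione synthesis, led those that were higher. Hmox1, heme oxygenase 1, had r of -0.604 with Mt1 and -0.58 with Mt2.

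Mt3 was the dim member, and its course ran against that of Mt4 over the 33 arrays (r = -0.719) but not at each step. Where Mt4 fell into mid catagen, Mt3 differed by 0.17 ± 0.39 (adjusted p = 0.768, limma). After depilation Mt3 had 319.5 and 393 at D3, 179 and 135 at D5, 86.3 and 73.3 at D8, 8.8 and 19.3 at D12 and 60.6 and 79.2 at D17. Neighbouring days did not overlap from D3 to D12, and the D12 pair lay under the floor of 34.6. It passed the F test over the 5 days (adjusted p = 0.00174, limma). At D5 it was 1.19 ± 0.22 lower than at D3 on the log2 scale (2.28-fold, adjusted p = 0.0382), a call kept in only 1 of 10 omissions and in 3 of 7 other settings (adjusted p up to 0.0734 with no filter, median centring, the joint fit or the replicate block). At D8 and D12 it was lower than at D5 by 1.57 or more (adjusted p = 0.0237, limma), a bound with no error because of the D12 pair, and the call was lost without D5 replicate 1 or without any 1 of the D8 and D12 arrays (adjusted p up to 0.0956), and also with no filter or with the replicate block (up to 0.0614).

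In the natural cycle Mt3 had 199, 116, 167 and 186 in early anagen, 84.1, 120.5 and 77.2 at mid anagen, and 86.9, 65.2 and 64.4 at late anagen. The P34 array was under the floor at 6.1, early catagen ran from 42.5 to 173 with a median of 102.9, mid catagen had 92.7, 132.5 and 88.7, and telogen 190.5, 142 and 131. Early and mid anagen overlapped in 1 array, P27 replicate 2 being above P23 replicate 2. In mid against early anagen Mt3 differed by -0.83 ± 0.23 (adjusted p = 0.0447, limma), a call kept in only 1 of 7 omissions and in 6 of 11 other settings. It was lost with no filter, with the replicate block, with P23 alone or P25 alone as early anagen and under the methods' analysis of variance after Benjamini-Hochberg adjustment (adjusted p up to 0.185). Mt3 was higher at D3 than in telogen (1.22 ± 0.34, adjusted p = 0.00931) and higher at D3 than in natural early anagen (1.11 ± 0.33, adjusted p = 0.00831). Both calls were lost without D3 replicate 2, with adjusted p up to 0.0818.

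The Mt3 course went with those of some muscle genes over the 33 arrays, though not in each comparison. The genes closest to it over the 33 arrays were Hspb2 (r = 0.808), a small heat shock protein of muscle, Alpk2 (0.796), Ppp1r12b (0.794), Cacng1 (0.794), a muscle calcium channel subunit, and Klhl40 (0.791), a muscle sarcomere protein. The summed signal of 10 skeletal muscle markers was 390164 and 280150 at D3, against 271116 to 301675 in telogen and 155942 to 209378 in natural early anagen. It was 90819.5 and 125738 at D12. Of the 10 markers 6 were higher at D3 than in natural early anagen, 0 at D3 than in telogen and 10 in telogen than in late anagen. Of all probe sets 18.5%, 13.4% and 23% were higher in these comparisons, and Mt3 was higher in each. Whole dorsal skin can include the muscle sheet under it, and the amount of muscle was not measured. The part of muscle in the Mt3 values was not tested. Over the 33 arrays Mt3 had r of -0.719 with Mt4, but the deviations from the means of the time points had r = 0.058. The negative correlation thus lay between time points and not between mice of the same day.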

How the data were processed

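Linear signal intensity values, 1 column for each of 33 mice, had been computed by the authors with the MAS 5.0 algorithm (version not given in the sources used here) and were taken as deposited. The study left outlying samples out of its own analyses by principal components and housekeeping genes, which can narrow the spread between mice. Trimmed means of the arrays were 496.8 to 498.4. All columns matched a sample (0 unmatched). Phases followed the description of the series, since some sample labels call P41, P44 and the depilation samples early anagen. Each array was a separate mouse, and the number of arrays limits the precision.

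A floor of 34.6 (25th percentile of the whole table) replaced lower signals before the log2 step. Only probe sets above the array median on at least 3 arrays were kept (26988 of 45037). Linear models were fitted in limma 3.58.1 under R 4.3.3 (lmFit, then eBayes), each natural step on only its own arrays, the depilation days in a fit of 10 arrays, and comparisons between cycles in a fit of 33 arrays with 1 mean per time point. P-values were adjusted by Benjamini-Hochberg over all kept probe sets, with calls at an adjusted p under 0.05. The scripts were tested on simulated data. Figures were drawn with matplotlib 3.10.9.

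Named genes were the 4 members, the 5 genes with the highest Pearson r to each, Mtf1, Slc30a1 and up to 4 genes of each pathway list with the smallest p in a comparison. Genes named beyond that rule (marker genes, Slc39a10, Atp7a, Sgk1, Zbtb16, Per1 and others) were chosen after their values were seen. Lists covered zinc exporters and importers, MTF1 targets, copper handling, oxidative stress, glucocorticoid-induced and inflammation genes, hair shaft, inner root sheath, epidermis, fibroblast, adipocyte, muscle, leukocyte, endothelium and mitosis markers. The members and lists were chosen with earlier results of these data known. Promoter windows came from RefSeq (GRCm38.p6), where all 4 members matched.

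Alternatives were other floors (16 and 64), no or a stricter filter, quantile normalization, median centring, a joint fit, sex as a covariate, a replicate block, P23 or P25 alone as early anagen, P34 added to late anagen, the analysis of variance of the study's methods, and each array left out in turn.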

Additional observations from a re-analysis of the deposited data

Results flagged for a closer look

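In natural early catagen, the Mt4 signal of 17301.8 on P39 replicate 2 stood apart from the other 5 arrays, which ran from 13933 to 14656. The gap to the nearest of them was 0.766 of the whole range, above Dixon's 95% critical value for 6 samples. The array was the highest of its phase for Mt2 as well, with 9865.5, and its summed hair shaft signal of 218999 lay within the range of the phase (203391 to 234228). The number of groups examined in this way was 15, and chance alone marks about 1 in 20. Leaving the array out kept the fall of Mt4 at mid catagen (range over the 9 omissions -2.01 to -1.80 on the log2 scale).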

How the results depend on the processing

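Counts are of members past the test. With no filter on low signals, where all 45037 probe sets are tested, 2 of 4 passed over the natural phases against 4 as reported, 2 of 24 phase steps passed against 4, and 1 of 12 steps after depilation against 3. With the filter that asks for more arrays above the median, which leaves out Mt3, 2 of 3 passed over the days after depilation against 1, and 2 of 9 steps against 1. With P23 alone or P25 alone as early anagen, 1 of 8 steps passed against 3, and the analysis of variance of the study's methods gave 2 of 24 against 4 after Benjamini-Hochberg adjustment. Replicate numbers did not pair the samples, since same-numbered arrays had a median correlation of deviations of 0.0276 in the natural cycle and -0.0869 after depilation. A replicate block left 1 of 12 steps after depilation against 3, and 3 of 24 natural steps. Leaving out 1 array gave between 0 and 3 phase steps (0 of 8 without P27 replicate 1 or 2 and 1 without replicate 3, against 2), between 1 and 2 steps after depilation (1 without any D8 or D12 array), and between 3 and 7 of 20 comparisons with the natural cycle, with 3 without D3 replicate 2 against 5 as reported. Differences that changed sign were small and not called. At D5 against natural mid anagen Mt1 was -0.018 under quantile normalization, and Mt2 was 0.12 under median centring, 0.16 with sex as a covariate and 0.091 with the replicate block. At D17 against natural early catagen Mt4 was 0.10 under median centring and 0.12 with sex. In early anagen against telogen Mt3 was -0.0029 with the block and -0.0015 with P23 alone. Mt2 was 0.090 at D5 against D3 under quantile normalization, and at D17 against D8 and D12 Mt3 was -0.0030 with a floor of 64 and Mt4 -0.014 under quantile normalization. Omissions of 1 array turned these ranges across 0: at D5 against natural mid anagen Mt1 -0.12 to 0.24 and Mt2 -0.27 to 0.22, Mt4 at D17 against natural early catagen -0.068 to 0.0096, at telogen against mid catagen Mt1 -0.79 to 0.17 and Mt4 -0.19 to 0.11, at mid against early catagen Mt2 -0.32 to 0.42 and Mt3 -0.056 to 0.35, at early anagen against telogen Mt3 -0.0029 to 0.27, at D8 and D12 against D5 Mt1 -0.35 to 0.0031 and Mt2 -0.41 to 0.074, and at D5 against D3 Mt2 -0.44 to 0.046. The cause was not tested. Signals near the floor limit Mt3, and the small number of arrays limits the rest.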
